A study of Mus musculus with 2 samples.

Results

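Mir221 and Mir222 are neighbouring miRNA genes on the mouse X chromosome, and their read counts were followed in the limb of the mouse embryo. Both were taken by gene symbol from the count tables, so they are 2 of 1973 miRNA genes, and the rule that picks them uses no measured value. Small RNA below 30 nt, from total RNA, was sequenced from limbs of strain B6NCrl at embryonic day 15.5. The series had 1 group, with 78 embryos pooled for replicate 1 and 62 for replicate 2, and each pool held male and female embryos. No genotype, agent or treatment was given for the animals, and no control group exists, so the results are levels and the difference between replicates. In whole limbs, fewer cells of a type and less RNA per cell cannot be told apart.

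A miRNA is cut from a hairpin precursor and guides repression of messenger RNAs that pair with its seed, the bases 2 to 8 of the mature strand. Mir221 and Mir222 are transcribed together as a cluster, and their 3p strands are known repressors of Cdkn1b, which encodes the cell cycle inhibitor p27, and of Kit, the receptor for stem cell factor. In blood vessels the pair is known to restrain endothelial cells through Kit and to promote the growth of smooth muscle cells. In muscle cell cultures both fall as myoblasts leave the cell cycle, and in the erythroid lineage both fall as red cells mature.

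The mature strands are shown first because they carry what the pair has in common. The RefSeq table used here listed no 5p strand for Mir222, so none is shown and none entered the search for shared seeds. Sequences are from RefSeq on GRCm38.p6, 5′ to 3′, with the seed in capitals. Mir1928 is included because it is the other mouse gene in the RefSeq table, which holds 1738 mature strands, with a seed found in Mir221 or Mir222.
miR-221-3p: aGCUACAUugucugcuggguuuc
miR-222-3p: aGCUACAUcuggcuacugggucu
miR-221-5p: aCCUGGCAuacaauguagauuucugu
miR-1928: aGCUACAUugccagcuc

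The 3p strands of Mir221 and Mir222 were identical over their first 8 bases and therefore had the same seed, GCUACAU. Position by position and without gaps, 11 of their 23 bases were the same. No alignment with gaps was made, so this count can miss likeness beyond the seed. The seed of miR-221-5p, CCUGGCA, was found in no other mature strand of the table. Mir1928, on chromosome 1, had 0 sense counts in both replicates, which allows up to 0.704 CPM in replicate 1 and 0.582 CPM in replicate 2. CPM is the sense count of a gene per 1000000 sense counts of all miRNA genes in the library, and each limit is 3 counts. Among the genes that RefSeq gives this seed, the counted reads therefore came from Mir221 and Mir222.

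The hairpins are shown because the tables count reads per hairpin gene, without separating its arms. Annotated mature strands are in capitals.
Mir221: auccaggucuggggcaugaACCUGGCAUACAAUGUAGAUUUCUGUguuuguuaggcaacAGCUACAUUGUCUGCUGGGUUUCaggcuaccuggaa
Mir222: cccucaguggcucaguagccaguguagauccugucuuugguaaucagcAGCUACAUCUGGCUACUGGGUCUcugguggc

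Mir221 (ENSMUSG00000065422.1) lies at chrX:19146294-19146388 and Mir222 (ENSMUSG00000065471.1) at chrX:19146893-19146971 of mm10, both on the minus strand. The gap between them was 504 bases, and Mir222 comes first in the direction of transcription. No other gene of the GENCODE M21 annotation overlapped the pair on either strand. The nearest was Gm14636, a processed transcript on the same strand that ended 10010 bases upstream of Mir222. The pair was thus annotated as intergenic, with no host exon or intron.

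The 2 hairpins were 95 and 79 bases long and shared at most 9 bases in a row. Neither had a stretch of 15 bases in common with any other of the 1005 RefSeq hairpins, so their reads could be told apart from those of the other listed hairpins. The predicted folding energy (RNAfold 2.7.2) was -42.8 kcal/mol for Mir221 and -40.7 kcal/mol for Mir222. Per base these were -0.451 and -0.515 kcal/mol, against a median of -0.406 over all the hairpins. By this measure Mir221 was more stable than 68.9% of the hairpins and Mir222 more stable than 86.6%. The GC content was 47.4% for Mir221 and 54.4% for Mir222, with a median of 51.7%.

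In the limb both genes were found at moderate levels in both replicates, and Mir221 was the higher of them in each. Mir221 had 812 sense counts in replicate 1 and 1061 in replicate 2, which is 190.4 CPM (Wilson 95% interval 178 to 204) and 206 CPM (194 to 219). Mir222 had 433 and 571 sense counts, or 102 CPM (92.4 to 112) and 111 CPM (102 to 120). Replicate 2 had the higher value for both genes, and the intervals of the replicates overlapped for both. The intervals of Mir221 and Mir222 did not overlap in either replicate.

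The mean level was 198 ± 11.0 CPM for Mir221 and 106 ± 6.57 CPM for Mir222 (SD, n = 2). The SD was 5.54% of the mean for Mir221, where counting error alone gives 3.28%, and 6.19% for Mir222, where counting error gives 4.48%. Per 1000000 of all reads, unmapped ones included, the mean levels were 93.1 and 49.9. Antisense counts were 0 for both genes in both replicates. A miRNA read spans the mature strand, so counts were not divided by hairpin length. Whether the strands were captured with equal efficiency was not tested, and this bears on every comparison of levels between genes below.

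Together the pair had 1245 counts in replicate 1 and 1632 in replicate 2, or 292 and 317 CPM. This is 0.0292% and 0.0317% of the sense counts. Over all miRNA genes there were 4263630 and 5151214 sense counts, 46.4% and 47.5% of all reads, and another 29.4% and 29.7% of reads had several alignments and entered no gene. Marker miRNAs were set beside the tissue label. Cartilage and epidermis are not particular to the limb, so their markers cannot test the label. Mir140 and Mir455 of cartilage made up 4.66% ± 0.145 of the sense counts and Mir203 and Mir205 of epidermis 8.87% ± 0.749 (SD, n = 2). Of the neuronal markers Mir9-2 and Mir9-3, neither reached 10 counts, and Mir9-2 was at 0. Both hairpins share 20 bases with another hairpin, so common reads entered no gene. Their low counts therefore cannot serve as a check of the label.

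By mean CPM, Mir221 was number 158 and Mir222 number 189 of the 340 detected genes, those that reached 10 sense counts in each replicate. In the single replicates Mir221 was number 164 and 158, and Mir222 number 195 and 183. Below Mir221 lay 53.5% of the detected genes, and below Mir222 44.4%. The curve of ranked levels shows both in its middle stretch, where a step of few ranks is a small step in CPM.

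**Figure D1:**
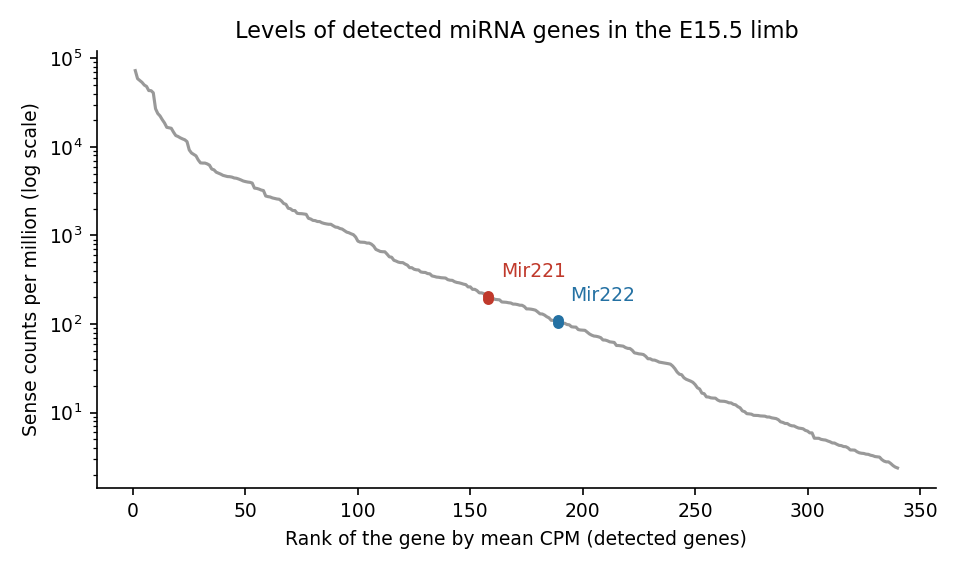
Mean CPM of the 340 detected miRNA genes (grey line, log scale) against their rank, with the values of both replicates of Mir221 and Mir222 as points. Mir221 sits at rank 158 with 198 CPM and Mir222 at rank 189 with 106 CPM.

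Directly above Mir221 came Mir574 (200 ± 22.6 CPM) and Mir152 (221 ± 9.49 CPM), and directly below it Mir181a-2 (196 ± 8.77 CPM) and Mir155 (196 ± 30.5 CPM; SD, n = 2 for each). Of these, the replicate range of Mir152, a miRNA of the miR-148 family, did not overlap that of Mir221. The other 3 did not differ from it beyond their spread. Over all detected genes, 10 had a replicate range that overlapped that of Mir221, and they lay between ranks 154 and 170. The place of Mir221 is therefore known only to within this stretch.

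Around Mir222 the order was Mir770 (110.1 ± 14.1 CPM), Mir138-2 (108 ± 2.97 CPM), Mir222, Mir101a (104 ± 3.06 CPM) and Mir135b (103 ± 44.2 CPM; SD, n = 2 for each). All 4 neighbours had replicate ranges that overlapped that of Mir222. Overlapping ranges were found for 15 genes in all, from rank 170 to rank 196. Mir135b stood out among the neighbours by its spread, with 71.8 CPM in replicate 1 and 134 CPM in replicate 2.

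**Figure D2:**
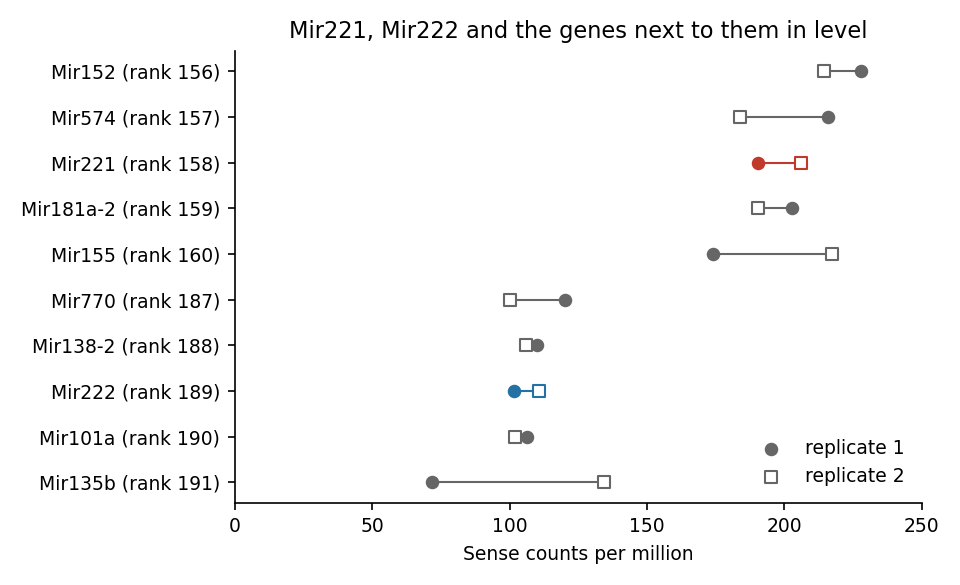
CPM in replicate 1 (filled circles) and replicate 2 (open squares) of Mir221, Mir222 and the 2 genes next above and below each by mean CPM. Mir152, at 214 and 228 CPM, is the one neighbour whose replicates do not overlap those of the member beside it.

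The genes nearest to each member were also taken from the distance in log2(CPM + 1) over the 2 libraries. For Mir221 these were Mir181a-2 at a distance of 0.14, Mir155 at 0.15 and Mir574 at 0.24. For Mir222 they were Mir874 at 0.08, Mir138-2 at 0.13 and Mir101a at 0.14. With 2 libraries this likeness is one of level, since each gene has only a pair of values. None of the 6 lies on the X chromosome.

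The count ratio of Mir221 to Mir222 was nearly the same in the replicates. It was 1.88 in replicate 1 and 1.86 in replicate 2, a mean of 1.87 ± 0.0121 (SD, n = 2). In replicate 1, Mir221 made up 65.2% of the counts of the pair, with a Wilson 95% interval of 62.5 to 67.8. In replicate 2 its share was 65.0%, with an interval of 62.7 to 67.3. The ratio in replicate 2 was 0.991 times that in replicate 1, with an exact 95% interval of 0.846 to 1.16 (p = 0.937, Fisher's exact test, two-sided). The interval gives the changes of the ratio that remain possible under counting error alone, and it is not a limit of detection. The ratio needs no library scaling, because both genes were read in the same library.

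Set beside other clusters of the limb, Mir221 and Mir222 were close in level. With neighbouring starts at most 10 kb apart on 1 strand, 27 clusters had exactly 2 detected genes. The higher member exceeded the lower by 1.31-fold to 351-fold, with a median of 11.7-fold. This median was 7.32-fold when neighbours were joined within 3 kb or 50 kb, or when at least 100 counts were asked. The fold was smaller than that of Mir221 over Mir222 in 6 clusters and larger in 20. The 6 were Mir374b with Mir421, Mir296 with Mir298, Mir181c with Mir181d, Mir192 with Mir194-2, Mir15b with Mir16-2, and Mir15a with Mir16-1. Several hairpins in these clusters share 20 bases with another, so reads common to the copies are missing from their counts. In 9 clusters, that of Mir221 among them, RefSeq listed both hairpins and neither shared 20 bases with another listed hairpin. In these 9 the fold was smaller in 1, Mir296 with Mir298, and the median was 11.5-fold. Hairpins that were not listed, such as those of Mir133a-1 and Mir133a-2, could not be compared.

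Between the replicates the log2 of the Mir221 to Mir222 ratio changed by -0.01, against a median absolute change of 0.14 over the 27 clusters and a highest of 0.48. A smaller change was found in 2 clusters, Mir374b with Mir421 and Mir200c with Mir141. The ratio differed between the replicates in 8 of the 27 clusters (29.6%) at an adjusted p of 0.05 by Fisher's exact test, and the pair was not among them (adjusted p = 0.959, Fisher's exact test). Clusters with many counts can pass this test at small changes, so the share of calls depends on their level. The plot of clusters places the pair near the end with small folds, with its replicates nearly on each other.

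**Figure D3:**
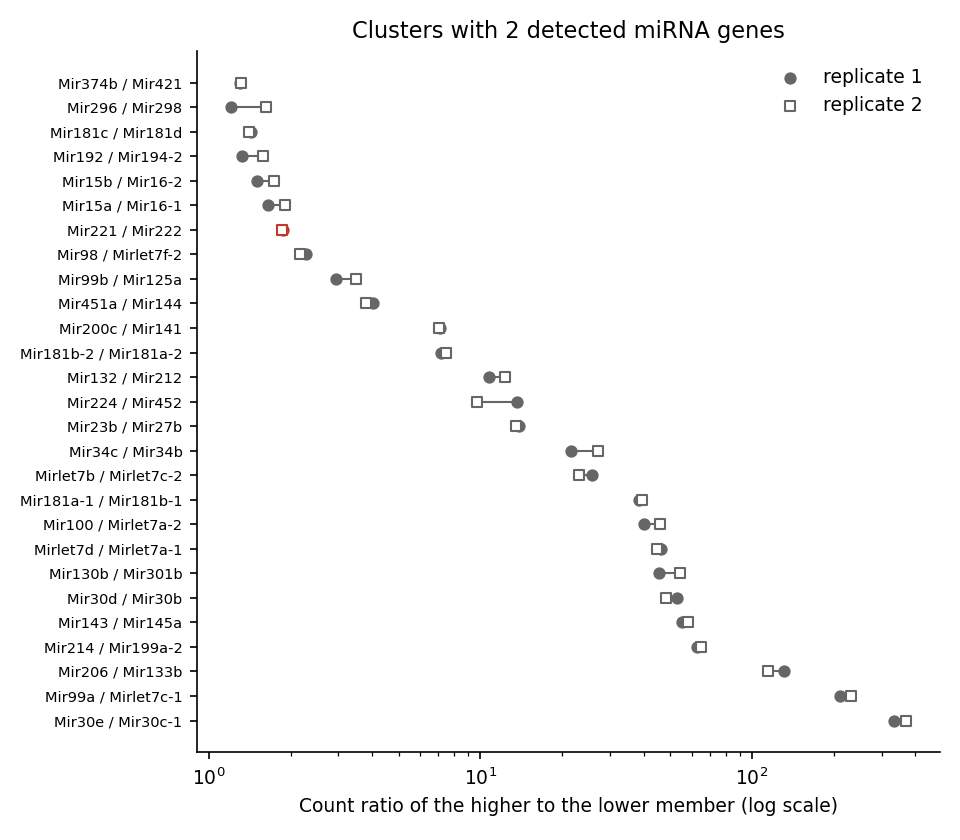
Count ratio of the higher to the lower member (log scale) in replicate 1 (filled circles) and replicate 2 (open squares) for the 27 clusters with exactly 2 detected genes. Mir221 over Mir222, in red, lies at 1.88 and 1.86, so its points nearly coincide.

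Neither gene passed the test for a difference between the replicates. The log2 ratio of replicate 2 over replicate 1 was 0.11 for Mir221, a ratio of 1.08 with an exact 95% interval of 0.986 to 1.19 (p = 0.0947, adjusted p = 0.157, exact binomial test). For Mir222 the log2 ratio was 0.13, a ratio of 1.09 with an interval of 0.962 to 1.24 (p = 0.173, adjusted p = 0.256, exact binomial test). In the same test 173 of 340 detected genes (50.9%) passed an adjusted p of 0.05, 25.3% higher and 25.6% lower in replicate 2. The test weighs 1 library against another by counting error alone and compares no conditions, and a gene with more counts passes it at a smaller ratio. A p that misses the threshold does not show that the level was the same, and the intervals reach an increase of 1.19-fold and 1.24-fold.

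The absolute log2 ratio was smaller than that of Mir221 in 101 of the 340 genes and smaller than that of Mir222 in 114. Among the 64 genes within 2-fold of the level of Mir221, 42 passed the test, the median absolute log2 ratio was 0.24, and 18 had a smaller value than Mir221. Among the 63 genes within 2-fold of Mir222, 36 passed, with a median of 0.24, and 21 had a smaller value. The values of both members were thus below the median of genes at their own level.

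**Figure D4:**
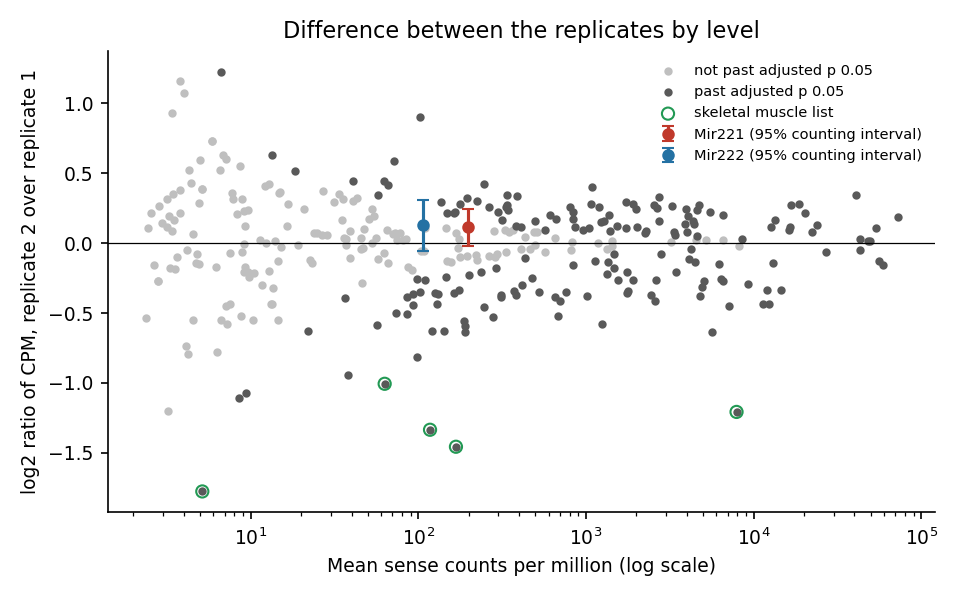
Log2 ratio of CPM, replicate 2 over replicate 1, against mean CPM (log scale) for the 340 detected genes, dark where the adjusted p is under 0.05. Mir221 and Mir222 (with 95% counting intervals that include 0) lie just above 0. The circled genes of the skeletal muscle list lie between -1.01 and -1.78. The value of -1.78 is that of Mir208a, which had only 34 and 12 sense counts.

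The replicates differed in miRNAs listed for skeletal muscle, the lineage in which the pair is known to fall on differentiation. Of 8 muscle list genes in the tables, 5 were detected, and all 5 passed the test as lower in replicate 2, as did 25.6% of all genes, with a median log2 ratio of -1.33 against 0.02. The list made up 1.16% of the sense counts in replicate 1 and 0.499% in replicate 2, with Mir133a-1 at 0 in both. RefSeq listed no hairpin under the symbols of the undetected genes, so bases shared with other hairpins were not checked. Reads with several alignments can be missing from their counts and from the share of the list. The part of the muscle list in the values of Mir221 and Mir222 was not tested. Mir206, induced by MyoD, had 11050 and 4787 CPM, while Mir221 had 190.4 and 206 CPM.

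On the X chromosome Mir221 and Mir222 were just below the middle of the detected genes by level. Of the 120 X-linked genes counted, 38 were detected, and by mean CPM Mir221 was number 21 and Mir222 number 22 of them. The pair gave 0.328% of the X-linked sense counts in replicate 1 and 0.373% in replicate 2. The highest X-linked genes were Mir322 (43119 ± 627 CPM), Mir351 (12025 ± 1963 CPM) and Mir652 (8529 ± 113 CPM; SD, n = 2 for each). The median log2 ratio of the X-linked genes was 0.06, against 0.02 over all detected genes, with 6 higher and 11 lower in replicate 2 past the threshold, where the shares over all genes were 25.3% and 25.6%. Mir221 and Mir222, at 0.11 and 0.13, were among the 23 with a higher value in replicate 2.

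Other miRNAs reported to repress Kit were at levels on both sides of the pair. All 6 genes of this list were detected, and none lay between Mir221 and Mir222. Above Mir221 were Mir34a, a target of p53, with 382 ± 22.3 CPM, Mir494 with 372 ± 62.0 CPM and Mir34c with 339 ± 57.4 CPM (SD, n = 2). Below Mir222 were Mir137, Mir193b and Mir193a with 72.8 ± 2.46, 62.1 ± 2.12 and 14.7 ± 2.55 CPM (SD, n = 2). The list held 0.124% ± 0.00206 of the sense counts, 4.08 times the share of the pair. Past the threshold, 2 were higher in replicate 2 (Mir34a and Mir34c), 1 was lower (Mir494) and 3 did not pass, which is near the 50.9% called over all genes. The median log2 ratio was 0.09, against 0.02 over all genes.

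Of the miRNAs reported to repress Cdkn1b, 7 had a row and all 7 were detected. Among the listed genes Mir181a-1 led with 1435 ± 11.3 CPM, followed by Mir148a with 1338 ± 29.1 CPM and Mir196a-2 with 799 ± 102 CPM (SD, n = 2). These are 7.24, 6.75 and 4.03 times the level of Mir221. Mir24-2 and Mir152 were also above Mir221, Mir181a-2 lay between the members of the pair, and Mir196a-1 was at 8.94 ± 0.291 CPM. The list held 0.435% ± 0.00792 of the sense counts, 14.3 times the share of the pair. This share leaves out other genes of these families. Mir196b, of the family of Mir196a-2, was not in the list and had 40763 ± 6885 CPM (SD, n = 2). Mir196a-2 passed the test as higher in replicate 2 and the other 6 did not pass, where 50.9% of all genes passed. The median log2 ratio was -0.04, against 0.02 over all genes. The hairpins of Mir24-2 and of both copies of Mir181a and Mir196a share 20 bases with another hairpin, so their counts leave out common reads and can be too low.

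Vessel wall and erythroid miRNAs, from lineages in which the pair is known to act, were compared with it in level. Of 4 vessel wall genes, 3 were above Mir221. The endothelial Mir126a had 22336 ± 903 CPM, 113 times Mir221, Mir143 of smooth muscle had 9222 ± 1311 CPM and Mir21a 6562 ± 78.6 CPM (SD, n = 2). Mir145a, the cluster partner of Mir143, had 163 ± 28.5 CPM and lay between Mir221 and Mir222. Of these 4, 1 passed the test as higher (Mir126a) and 2 as lower in replicate 2 (Mir143 and Mir145a), where 25.3% of all genes were higher and 25.6% lower. Their median log2 ratio was -0.13, against 0.02 over all genes.

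Of 3 erythroid genes, Mir451a, which is matured by Ago2, had 332 ± 9.92 CPM, 1.68 times Mir221. Mir144 and Mir486 had 85.0 ± 1.13 and 22.0 ± 6.69 CPM (SD, n = 2), both below Mir222. Mir486 passed the test as lower in replicate 2 and the others did not pass, where 50.9% of all genes passed. The median log2 ratio was -0.06, against 0.02 over all genes. The erythroid list held 0.0439% ± 0.00155 of the sense counts, 1.44 times the share of the pair.

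The miR-17-92 and miR-106b-25 clusters, which promote proliferation, were compared with the pair. Of 9 genes detected 7 exceeded Mir221, led by Mir17 with 13424 ± 1088 CPM, 67.7 times Mir221, and by Mir93 with 5502 ± 602 CPM (SD, n = 2). The 2 below Mir222 were Mir19a with 33.6 ± 5.73 CPM and Mir19b-1 with 8.66 ± 2.30 CPM. The hairpins of Mir19b-1 and Mir92-1 share 20 bases with another hairpin, so their counts leave out common reads and can be too low. In this list 7 genes passed the test as higher in replicate 2, as did 25.3% of all genes, and 2 did not pass. The median log2 ratio was 0.19, against 0.02 over all genes. A further paralogous cluster, Mir106a-363 on the X chromosome, was not in the list, and its detected genes Mir92-2, Mir106a, Mir363, Mir20b and Mir18b all lay below Mir222, from 6.87 to 62.6 CPM. Of these 5 genes, Mir92-2 passed the test as higher in replicate 2 and the other 4 did not pass. Bases shared with other hairpins were not checked for them, so common reads can be missing from their counts too.

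Messenger RNAs were not measured, so the link from the pair to its targets can be described only in sequence. In the longest annotated 3' UTR of each of 7 known targets, sites for the shared seed were searched on the transcript strand. A site was ATGTAGC, opposite the seed, or TGTAGCA, opposite bases 2 to 7 and followed by A. Where they overlap as ATGTAGCA, an 8-base site, they were counted once. Each of the 7 targets reported had at least 1 site, 12 in total, and 5 targets had at least 1 of the 6 8-base sites. Over the longest 3' UTRs of 21037 genes, 15.6% had a site and 3.50% an 8-base site. The targets were chosen because they are known for such sites, so this count is a description and no evidence of enrichment.

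The sites of Cdkn1b, of its relative Cdkn1c (p57) and of Kit are shown because these genes define what the pair is known for. Each line gives 30 bases of GRCm38, read from the GENCODE M21 transcripts, with the site in capitals.
Cdkn1b site 1, chr6:134924420-134924449 (plus strand): aaaagcattggATGTAGCAttgcgcaatta
Cdkn1b site 2, chr6:134924496-134924525 (plus strand): tatcttttactcTGTAGCAcataaacgtta
Cdkn1b site 3, chr6:134924575-134924604 (plus strand): cttgcttcaattTGTAGCAaggagaaaaat
Cdkn1c site, chr7:143458914-143458943 (minus strand): acctttcgttcATGTAGCAggaaccggaga
Kit site 1, chr5:75654981-75655010 (plus strand): atgggagatatATGTAGCAagactagaaaa
Kit site 2, chr5:75656512-75656541 (plus strand): taaatattgaaATGTAGCAataatgtcttt

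Kit had 2 sites, both of the 8-base kind, 447 and 1978 bases after the stop codon in a 3' UTR of 2177 bases. Of the 3' UTRs from 80% to 125% of this length, 24.5% had a site and 5.42% an 8-base site. Cdkn1b had 1 8-base site and 2 of the 7-base kind with A, all within the stretch from base 2357 to base 2519 of its 3439 bases. Here 37.8% of 3' UTRs of similar length had a site and 9.08% an 8-base site. Cdkn1c, with 688 bases, had 1 8-base site 95 bases after the stop codon, and 8.04% of 3' UTRs of similar length had a site.

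Among the other targets, Ets1, an endothelial transcription factor, had 2 sites in 3395 bases, and the apoptosis gene Bbc3 (Puma) had an 8-base site in 971 bases. Timp3, a metalloproteinase inhibitor, had 2 sites in 3604 bases, and the transcription factor Foxo3 had 1 in 4490 bases, none of them of the 8-base kind. A match is a description of sequence and does not show repression in the limb.

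**Figure D5:**
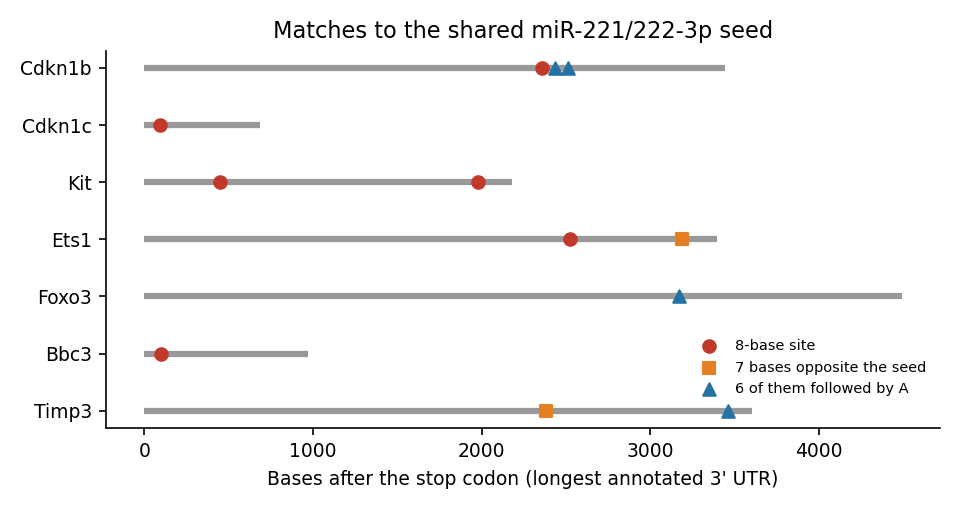
Longest annotated 3' UTR of 7 known targets (grey bars, in bases after the stop codon) with matches to the seed shared by miR-221-3p and miR-222-3p. Circles are 8-base sites, squares the 7 bases opposite the seed and triangles 6 of them followed by A, and Kit carries 2 circles while the 3 sites of Cdkn1b lie close together.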

How the data were processed

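MicroRNA-seq of 2 libraries from pooled embryonic limbs was analysed, 1 library per replicate of a single group. The deposited tables held raw read counts for each miRNA gene on mm10 with the M4 annotation, per the README deposited by the authors. The columns had no header, and from the values they were read as the counts of both strands, of the sense strand and of the antisense strand. Aligner, counter, versions and trimming are not given in the sources used here. Summary lines (unmapped, several alignments, outside miRNA genes, ambiguous) were left out of totals and tests.

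Ensembl identifiers were matched to GENCODE M21 symbols on GRCm38, the assembly of mm10, for 1894 of 1973 genes. Detected genes had at least 10 sense counts in both replicates. For each, the split of its counts between the libraries was set against the library totals by a two-sided exact binomial test. P-values were adjusted over all 340 genes by Benjamini-Hochberg, with 0.05 as threshold (Python 3.11.15 with scipy 1.17.1), and the script was tested on simulated data. Intervals are Wilson or exact at 95% and cover counting error only, since reads without molecular identifiers are not independent molecules. The labels call the replicates biological, from separate pools, and with n = 2 a test of conditions is not possible. Library sizes by TMM (edgeR 4.0.16) and by size factors (DESeq2 1.42.0, R 4.3.3) were alternatives. Mature strands and hairpins came from RefSeq (GRCm38.p6), and both members matched. Of the target genes searched for sites, 1 is not reported here.

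Named genes are the members, the 3 nearest genes in log2(CPM + 1), the 2 above and below each in level, genes with a shared seed, the 3 highest genes of the X chromosome, and detected genes of the lists. Muscle and marker genes at 0 and the clusters with a smaller fold or change are named beside small counts and were picked with their values in view. The detected Mir106a-363 genes and Mir196b are also named, although they were outside these choices. The members and lists were chosen with earlier results of these data known.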

Additional observations from a re-analysis of the deposited data

How the results depend on the processing

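Of 46 recomputed values, 40 kept their direction, side of the threshold or range, 6 moved and none reversed. Some of the 40 could not have moved, so the tally is no measure of robustness. With 2 replicates, a level or count ratio from 1 replicate always lies within the SD of the mean. The count ratio irrespective of strand was also fixed, as both genes had 0 antisense counts. A different count minimum can change the adjusted p of a log2 ratio but not the log2 ratio. Scaled to all reads of the tables, which adds unmapped and several-alignment reads to the total, the level was 93.1 CPM for Mir221 and 49.9 CPM for Mir222. By that construction every gene moves alike. Leaving out 1 replicate at a time gave 190.4 to 206 CPM for Mir221, 102 to 111 CPM for Mir222 and a count ratio of 1.86 to 1.88. The log2 ratio between replicates ranged from 0.09 to 0.15 for Mir221 (adjusted p 0.0570 to 0.268, exact binomial test) and from 0.11 to 0.16 for Mir222 (adjusted p 0.145 to 0.423, exact binomial test) over 6 alternatives each, so neither passed. The lowest p values came with all reads as the total. The number of genes past the threshold was 167 to 184. Counted irrespective of strand, Mir221 was number 167 and Mir222 number 200, in an order that genes with antisense reads also enter. Without replicate 2, Mir221 was number 164. Clusters with a smaller fold than the pair numbered 7 of 29 with 3 kb and 8 of 31 with 50 kb. With at least 100 counts they numbered 6 of 27, and the median fold was 7.32 under each of these settings. Counting only 8-base sites left 6 of 12 sites. No paired analysis was possible because the series has 1 group.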
